A study of Mus musculus with 6 samples.

Results

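The thrombospondins are a small family of secreted matrix glycoproteins, and the 5 genes described here are its whole mouse membership: Thbs1, Thbs2, Thbs3, Thbs4 and Comp, which is also called thrombospondin 5. They were chosen by gene symbol as 5 of the 32285 gene rows of the deposited matrices. Single-cell transcripts and surface proteins had been measured together, by CITE-seq, in whole left quadriceps of male wild-type C57BL/6 mice aged 2 to 3 months. The groups were a critical injury, a 3 mm defect that counts as volumetric muscle loss, a subcritical defect of 2 mm, both taken at day 7, and uninjured muscle. Each group was 4 animals whose digested cells carried hashtag antibodies, were pooled and ran as 1 library, so that group, pool and library cannot be told apart. All groups share sex, strain and genotype and carry no transgene, and each is limited as a model by its pooled animals and by the cells that survive enzymatic digestion.

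All members are built around the same calcium-binding carboxy-terminal region, and they fall into 2 subgroups. Thbs1 and Thbs2 form trimers and carry type 1 repeats, the modules through which they bind the scavenger receptor CD36 and, in the case of Thbs1, activate latent TGF-beta. They are known for restraining blood vessel growth, and mice without Thbs2 have disordered collagen fibrils. Thbs3, Thbs4 and Comp form pentamers without those repeats and act mainly as bridges in collagen-rich matrix. Comp is a structural protein of cartilage and tendon, and Thbs4 is known in tendon and at the attachments of muscle.

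The promoters are given to show how the members differ in the DNA at their starts. RefSeq windows of 250 bases before to 50 bases after the start (GRCm38.p6) were matched for 3 of the 5 members. The Thbs2 window is chr17:14694213-14694512 on the minus strand, that of Thbs3 is chr3:89214930-89215229 on the plus strand and that of Thbs4 is chr13:92794769-92795068 on the minus strand. Capitals mark letters of the motifs searched.
Thbs2: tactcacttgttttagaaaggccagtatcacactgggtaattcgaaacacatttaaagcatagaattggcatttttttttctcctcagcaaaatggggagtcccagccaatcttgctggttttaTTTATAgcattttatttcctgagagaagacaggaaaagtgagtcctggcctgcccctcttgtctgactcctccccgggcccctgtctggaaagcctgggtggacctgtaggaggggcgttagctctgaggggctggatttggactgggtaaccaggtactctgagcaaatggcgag
Thbs3: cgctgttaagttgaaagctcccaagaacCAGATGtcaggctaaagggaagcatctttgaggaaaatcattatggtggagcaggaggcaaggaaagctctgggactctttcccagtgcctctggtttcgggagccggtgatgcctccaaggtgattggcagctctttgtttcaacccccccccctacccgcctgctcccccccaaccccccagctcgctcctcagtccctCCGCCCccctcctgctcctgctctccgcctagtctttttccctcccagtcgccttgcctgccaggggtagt
Thbs4: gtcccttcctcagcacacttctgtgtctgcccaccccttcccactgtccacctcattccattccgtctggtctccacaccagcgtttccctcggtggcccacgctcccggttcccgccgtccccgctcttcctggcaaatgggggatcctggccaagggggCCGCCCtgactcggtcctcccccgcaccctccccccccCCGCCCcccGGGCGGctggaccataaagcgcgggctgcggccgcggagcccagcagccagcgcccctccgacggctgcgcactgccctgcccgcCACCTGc

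The Thbs4 window was 72% G and C with 24 CG pairs, which placed it at the 93.1 percentile for GC among 32544 promoters of 300 bases (median 53% and 7 CG pairs). The Thbs2 window was 48.3% G and C with 4 CG pairs, and the Thbs3 window 59% with 8. On either strand, the GC box letters GGGCGG were found at bases 162, 200 and 209 of the Thbs4 window and at base 230 of the Thbs3 window, against 35.9% of all promoters with at least 1 match. The TATA box letters TATAAA were found at position −126 from the start of Thbs2, on the opposite strand, against 13.6% of promoters. The E-box letters CAGNTG, of the kind bound by the tendon factor scleraxis, were found at base 294 of the Thbs4 window and base 29 of the Thbs3 window, and in 51.5% of all promoters. The AP-1 letters TGANTCA (7.79% of promoters) and the Egr letters GCGNGGGCG (5.6%) were in none of the 3 windows. These matches describe letters and not bound sites.

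The critical, subcritical and uninjured libraries held 7138662, 4954129 and 5681346 transcript counts (UMIs). After filtering, 3033, 2754 and 2118 cells were kept, with medians of 1589, 1277 and 1797 UMIs. Between 10 and 16 cell barcodes were shared by any pair of libraries. Clusters were drawn without the 5 members among the variable genes, so that the members do not define the classes they are described in. Muscle-lineage cells were few, 118, 98 and 27 in the critical, subcritical and uninjured libraries (multinucleate fibres are not captured by this assay). A hashtag gave the animal of 37.9%, 44.3% and 45.6% of cells, but of under 10% of fibroblastic cells. Statements on fibroblasts therefore compare 1 library with another and have no replicate check, and their intervals, at 95% confidence, cover counting error only.

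Over all cells of a library, transcripts of 4 of the 5 members were more abundant after either injury. Thbs2 stood at 382.1 CPM in the critical, 312.8 CPM in the subcritical and 25.25 CPM in the uninjured library (CPM scales a gene's UMIs to the total UMIs of the cells named), and Thbs4 at 1596, 1522 and 545.6 CPM. Thbs1 stood at 175.4, 176.1 and 73.37 CPM, and Thbs3 at 104.6, 102.4 and 27.99 CPM, in the same order of libraries. Comp alone stood lower after injury, at 222.5 and 278.3 CPM in the critical and subcritical libraries, against 306.1 CPM in the uninjured library.

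On the log2(CPM + 1) scale, with a fold counted where it reached 1, Thbs1 to Thbs4 were past the fold upward in both contrasts with uninjured muscle, as were 7.82% of 11174 genes for critical and 7.21% of 11133 genes for subcritical injury. No member was past the fold between the critical and subcritical libraries, where 0.535% of genes were. In such whole-library values fewer cells of a type and less RNA per cell cannot be told apart. The cell mix differed widely: fibro-adipogenic-progenitor-like cells (FAP-like, the interstitial fibroblasts of muscle) accounted for 30.5% of cells after critical injury, 27.6% after subcritical injury and 7.70% without injury. For endothelial-like cells the shares were 20.4%, 20.3% and 60.5%.

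Fibroblastic cells held most of the UMIs of 4 members in every library. FAP-like and tenocyte-like cells together held 89.0%, 92.3% and 86.2% of Thbs2 UMIs in the critical, subcritical and uninjured libraries, and 90.9%, 93.0% and 84.3% of Thbs3 UMIs. For Thbs4 the shares were 90.1%, 91.3% and 95.1%, and for Comp 97.1%, 97.7% and 94.1%. Thbs1 was the exception. Its share in these cells was 75.0% after critical and 77.4% after subcritical injury but 30.9% in uninjured muscle, where mural-like cells, the contractile cells of vessel walls, held 48.1% of its UMIs.

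**Figure D1:**
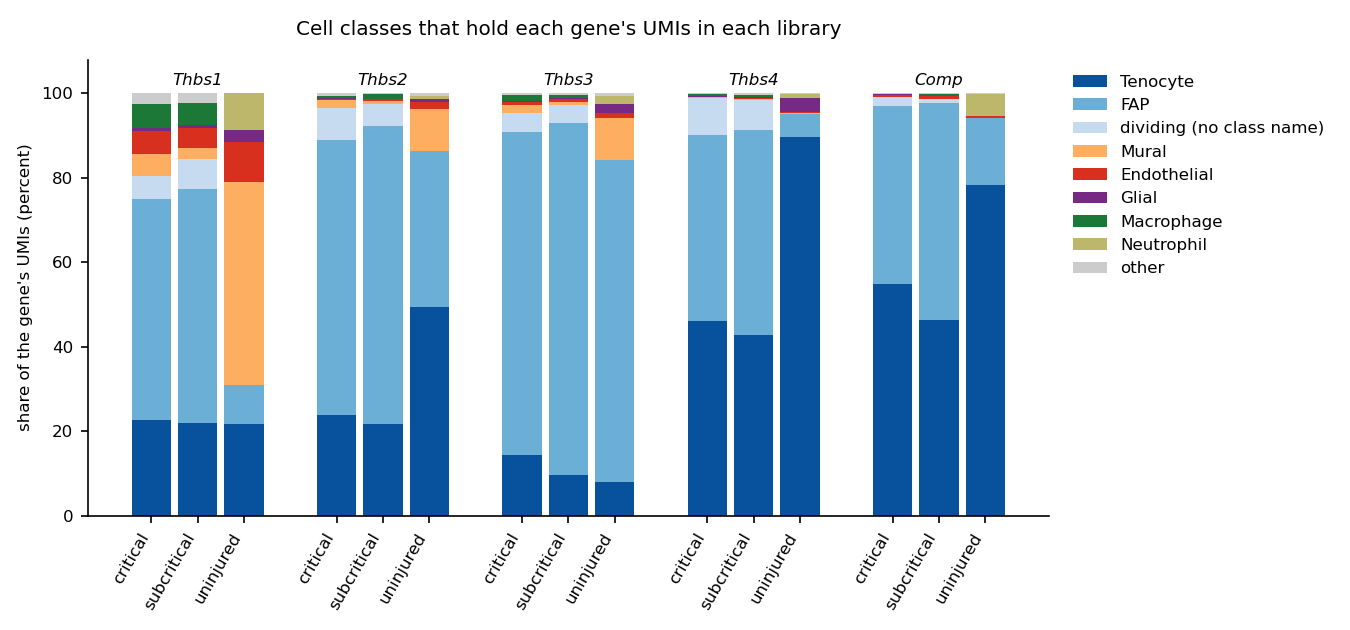
Share of each member's UMIs that came from each cell class (vertical axis, percent of the gene's UMIs in that library), for the critical, subcritical and uninjured libraries of each gene. Fibroblastic classes fill most of every bar except Thbs1 in uninjured muscle, where mural-like cells held 48.1%.

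Among cell classes, tenocyte-like cells had the highest Thbs4 and Comp levels in all 3 libraries. This class was 140, 124 and 31 cells in the critical, subcritical and uninjured libraries, and all 8 tenocyte markers were counted in each. Tnmd stood at 4200, 3740 and 2602 CPM, Scx at 948.0, 968.5 and 891.6 CPM, and Mkx at 67.11, 51.61 and 67.78 CPM. The other 5 were highest in the uninjured library, such as Fmod at 3624, 3786 and 9990 CPM, Kera at 305.4, 309.7 and 912.4 CPM and Cilp2 at 308.7, 455.4 and 1246 CPM. Thbs4 stood at 8406 CPM in critical, 9087 CPM in subcritical and 13940 CPM in uninjured tenocyte-like cells, against 1806, 2094 and 252.7 CPM in FAP-like cells. Comp stood at 1396, 1797 and 6825 CPM in tenocyte-like and at 241.6, 405.2 and 412.4 CPM in FAP-like cells. Since class and library are the only units, these orders are descriptions.

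Outside the fibroblastic classes the order differed by gene. Thbs4 was next highest in glial-like cells, at 706.5 CPM (95% interval 457.2 to 1043) in the critical, 708.2 (365.9 to 1237) in the subcritical and 508.0 (414.6 to 616.1) in the uninjured library. The critical and subcritical levels came from only 35 and 14 cells, with 25 and 12 Thbs4 UMIs. In uninjured muscle that glial level lay above the FAP-like level, whose interval was 215.4 to 294.6 CPM. A Thbs4 UMI was seen in 24.5% of 110 uninjured glial-like cells (median 1540 UMIs) and in 0.468% of 1282 uninjured endothelial-like cells (median 1535 UMIs).

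For Thbs1 in uninjured muscle, tenocyte-like cells were highest at 453.6 CPM (363.3 to 559.5), followed by mural-like cells at 209.0 (180.5 to 240.6) and neutrophil-like cells at 112.1 (78.05 to 155.8). FAP-like cells at 57.36 CPM (40.39 to 79.06) and glial-like cells at 54.25 (27.08 to 97.07) did not differ beyond counting error, and endothelial-like cells stood at 15.37 (10.87 to 21.09). Thbs1 was not seen in the 31 macrophage-like, 27 myogenic-like and 40 B-like uninjured cells, which at 3 counts allows 38.6, 58.5 and 18.7 CPM. Among classes of at least 20 cells in the critical library the Thbs1 order was tenocyte-like at 454.7 CPM, FAP-like at 236.0, glial-like at 197.8 (7 UMIs), mural-like at 158.0, endothelial-like at 74.19, myogenic-like at 49.14 and macrophage-like cells at 46.06 CPM. The intervals of the FAP-like, glial-like and mural-like levels each overlapped a neighbour. The 16 critical B-like cells stood at 283.1 CPM, from 17 UMIs. Their cluster was led by Cd79a, Car1 and Car2, of which Cd79a alone is a B marker, so the name is a loose one.

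**Figure D2:**
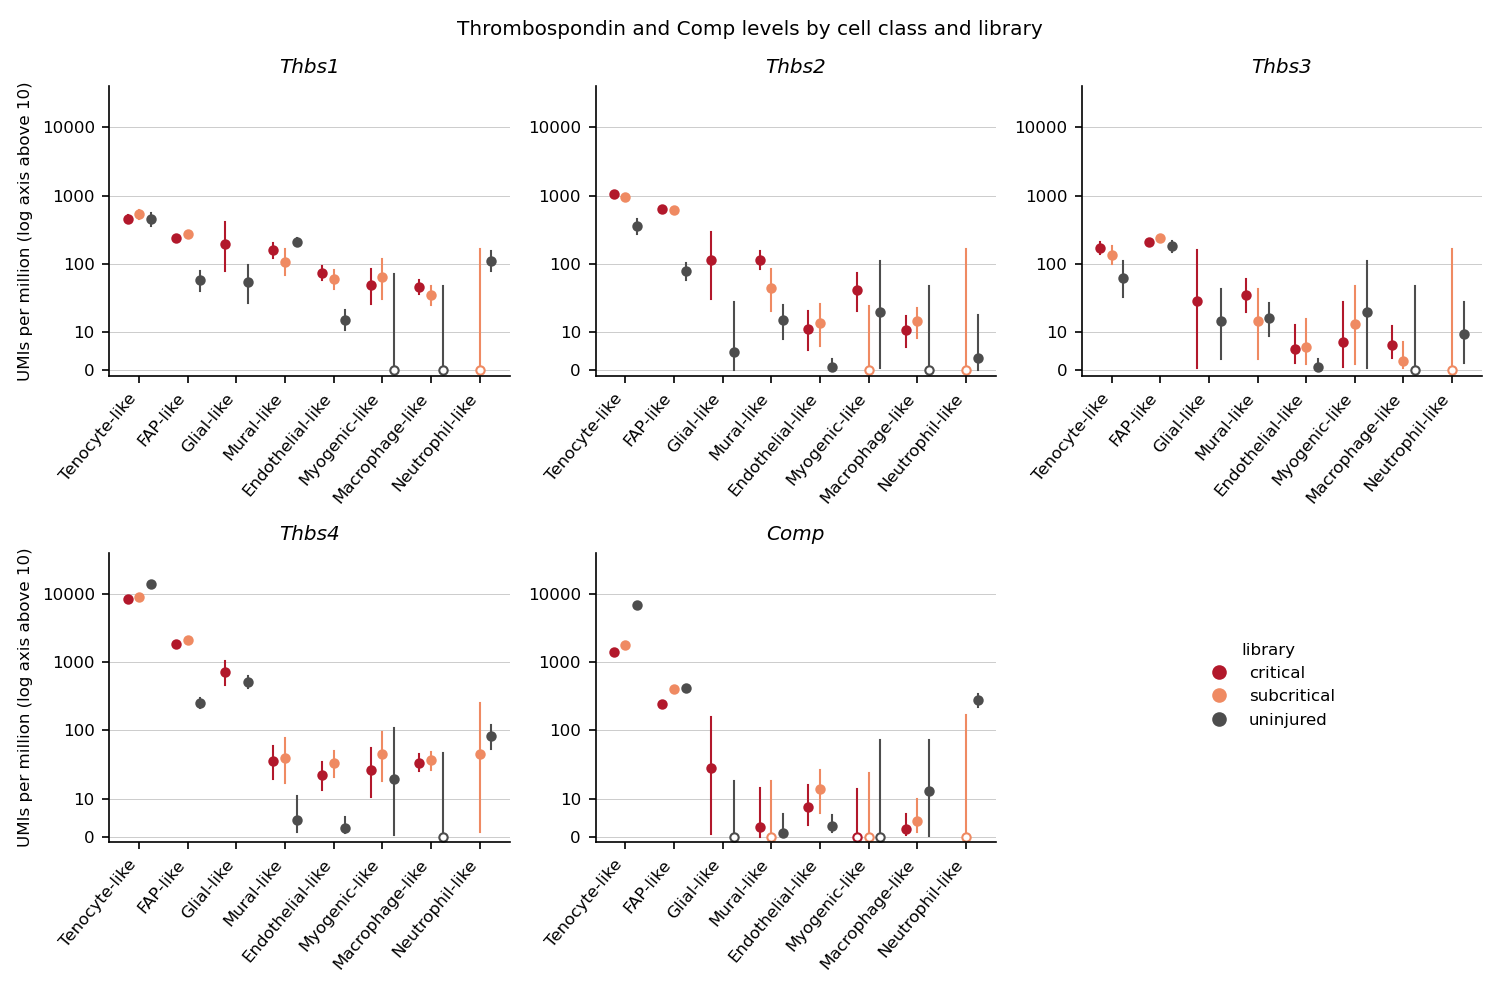
Level of each member (vertical axis, CPM, linear below 10 and log above) in 8 cell classes of the critical, subcritical and uninjured libraries, where a class had at least 20 cells, with exact Poisson intervals as bars and open symbols where no UMI was counted. Thbs4 and Comp were highest in tenocyte-like cells of every library, and uninjured FAP-like cells lay below injured ones for Thbs1, Thbs2 and Thbs4.

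Among FAP-like cells, the trimeric members Thbs1 and Thbs2 and the pentameric Thbs4 were several-fold higher after either injury, while Thbs3 and Comp were not. The class held 924, 759 and 163 cells with medians of 2584, 1995 and 3830 UMIs in the critical, subcritical and uninjured libraries, and its markers Pdgfra (143.6, 129.9 and 372.1 CPM) and Dcn (4091, 4359 and 16270 CPM) were present in each.

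Thbs2, whose product shapes collagen fibrils in mice, stood at 639.7 CPM in critical, 625.0 CPM in subcritical and 79.06 CPM in uninjured FAP-like cells. Both injured libraries lay far above the uninjured one, by 3.0 (2.60 to 3.43) and 2.97 (2.56 to 3.40) on the log2 scale. A Thbs2 UMI was found in 56.8%, 50.7% and 17.8% of the cells, and in 38.6%, 35.6% and 7.59% once every cell was thinned to 1127 UMIs, which left out shallower cells and kept 743, 571 and 145. In endothelial-like cells, at medians of 1069, 921 and 1535 UMIs, the share with a Thbs2 UMI was 1.45%, 1.61% and 0.156%.

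Thbs4 stood at 1806, 2094 and 252.7 CPM in critical, subcritical and uninjured FAP-like cells. The log2 folds over uninjured were 2.83 (2.61 to 3.07) for critical and 3.05 (2.82 to 3.28) for subcritical cells. Its UMIs were in 61.9%, 61.1% and 16.0% of cells, and in 53.4%, 55.2% and 10.3% after thinning. Thbs1, the activator of latent TGF-beta, stood at 236.0, 277.1 and 57.36 CPM, with log2 folds of 2.02 (1.55 to 2.53) and 2.25 (1.77 to 2.77). Its UMIs were in 27.1%, 25.4% and 11.7% of cells, and in 13.7%, 15.8% and 4.83% after thinning.

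Thbs3, a pentamer of connective tissue and skeleton, stood at 205.8, 242.0 and 181.4 CPM in critical, subcritical and uninjured FAP-like cells. The libraries lay close together, with log2 folds of 0.18 (−0.11 to 0.48) and 0.41 (0.11 to 0.72) over uninjured. Comp stood at 241.6 CPM in critical, 405.2 CPM in subcritical and 412.4 CPM in uninjured cells, so that the critical library was the low one. Its log2 fold was −0.77 (−0.98 to −0.56) for critical and −0.03 (−0.23 to 0.19) for subcritical over uninjured. The critical fold of Comp turned to 0.59 without the 10 highest cells of each library, an equal number from unequal groups, and to 0.25 with coarser clusters (Leiden 0.4).

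So 3 of the 5 members were past the fold upward in FAP-like cells in each contrast with uninjured muscle and none downward, against 8.69% of genes higher and 9.69% lower in the critical contrast and 8.34% higher and 9.84% lower in the subcritical contrast. The median log2 fold of all genes was −0.06 and −0.08. In the uninjured library, 10 cells carried 75.7% of Thbs1, 76.7% of Thbs4 and 74.4% of Comp UMIs of the class, so those levels rest on few cells. With the coarser clusters, which gave most of cluster 2 the tenocyte name, Thbs1 was no longer past the fold in FAP-like cells (0.26 and 0.22), while Thbs2 (1.78 and 1.75) and Thbs4 (2.26 and 2.19) were. Markers of macrophages summed to 213.4, 320.2 and 6.20 CPM in critical, subcritical and uninjured FAP-like cells, with 0, 0 and 7 of the 10 markers at 0. Markers of endothelium summed to 185.5, 70.2 and 169.0 CPM, with 3 of 10 at 0 in the uninjured library. Their part in the differences was not tested.

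The FAP-like class was made of different clusters in injured and uninjured muscle, and most of the Thbs1 difference lay between clusters rather than within the shared one. Of the uninjured cells, 157 of 163 were in cluster 3, led by Myoc, Gsn and Pi16. Cluster 3 held 278 critical and 270 subcritical cells, while cluster 2, led by H19, Ptn and Postn, held 494 critical, 366 subcritical and 1 uninjured cell. Cluster 13, led by B830012L14Rik, Gm26917 and Dnm3os and shallow at a median of 904.5 UMIs, held 152, 123 and 5 cells.

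Within cluster 3, Thbs4 stood at 1214 CPM in critical, 1185 CPM in subcritical and 255.7 CPM in uninjured cells, with log2 folds of 2.24 (2.00 to 2.49) and 2.21 (1.95 to 2.47). Thbs2 stood at 257.9, 255.1 and 78.44 CPM, with log2 folds of 1.70 (1.25 to 2.18) and 1.69 (1.21 to 2.19). Thbs1 stood at 69.66, 71.68 and 58.05 CPM, with log2 folds of 0.26 (−0.38 to 0.91) and 0.30 (−0.40 to 1.0). Hence 2 members were past the fold upward within the cluster that all libraries shared, against 7.20% of genes in the critical and 7.60% in the subcritical contrast, and Thbs1 was not.

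Comp also stood higher after injury in that cluster, unlike in the FAP-like class as a whole. It was at 527.7 CPM in critical and 735.8 CPM in subcritical cells, against 412.6 CPM in uninjured cells (log2 0.35 and 0.83). Thbs3 stood at 312.7, 286.7 and 183.6 CPM, with log2 folds of 0.77 (0.43 to 1.10) and 0.64 (0.28 to 1.008). Cluster 3 itself was not alike in the libraries, since activated-fibroblast genes summed to 3494, 2785 and 214.9 CPM there.

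Cluster 2 showed Thbs1 at 234.8 CPM in critical and 265.0 CPM in subcritical cells, Thbs2 at 671.0 and 620.4 CPM, Thbs3 at 169.0 and 213.0 CPM and Thbs4 at 1937 and 2084 CPM. In the shallow cluster 13 Thbs1 reached 852.4 and 1115 CPM, Thbs2 1726 and 2002 CPM and Thbs4 2697 and 5463 CPM. Dividing cells, cluster 18 with 41 critical and 28 subcritical cells and no class name, had Thbs4 at 3779 and 3710 CPM and Thbs2 at 781.9 and 553.4 CPM. In both injured libraries clusters 2, 13 and 18 had higher Thbs1 and Thbs2 levels than cluster 3 of the same library.

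**Figure D3:**
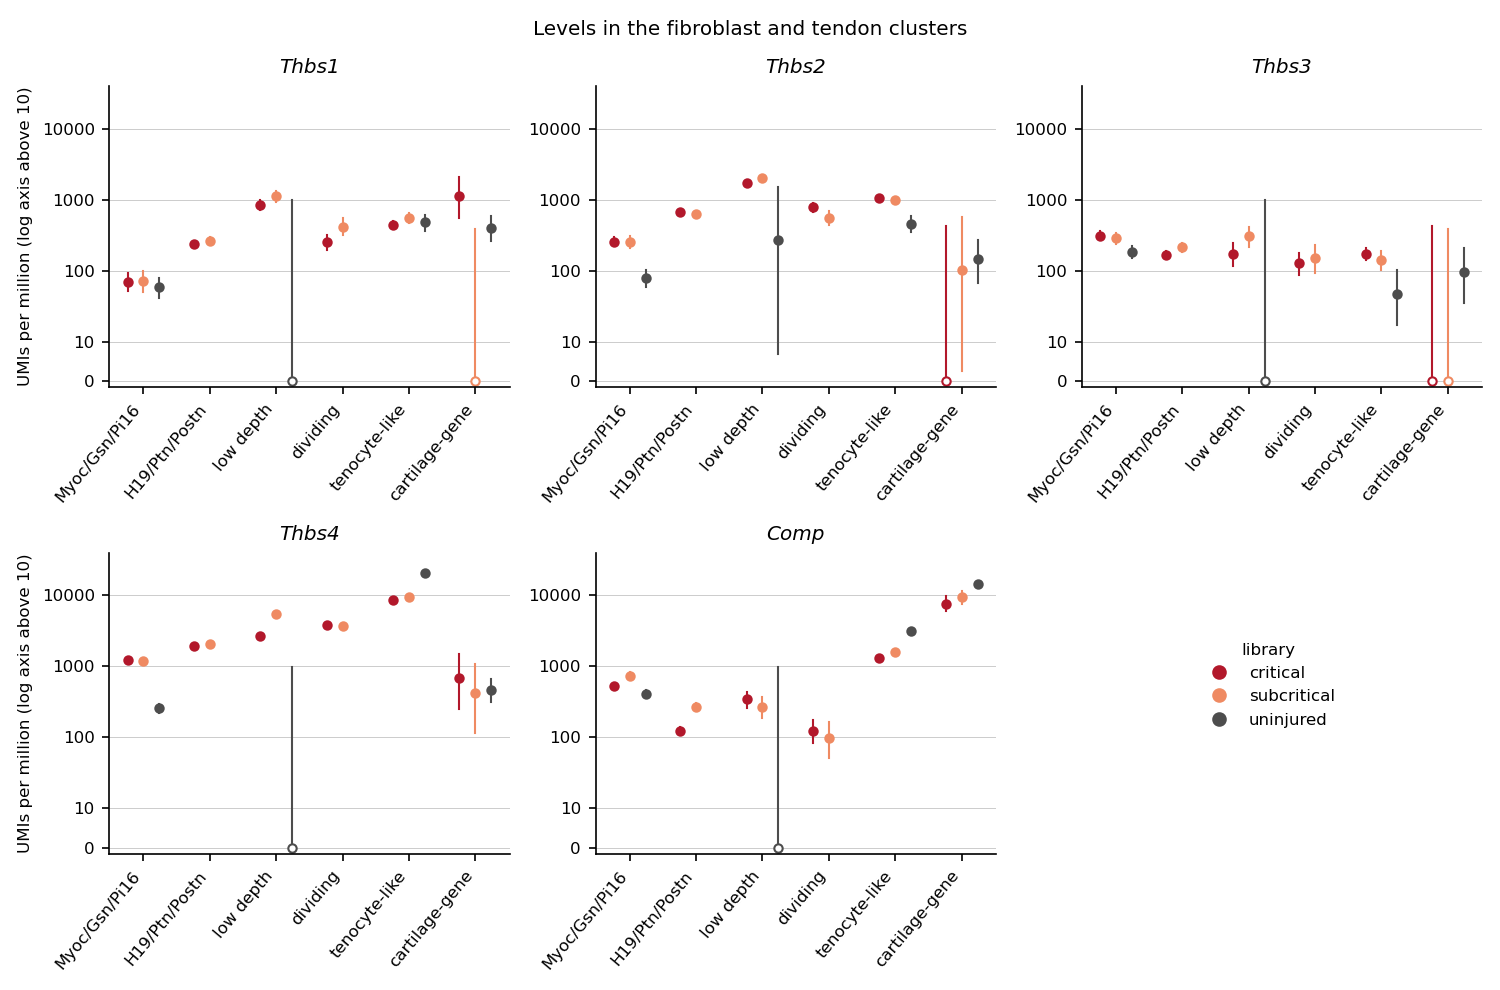
Level of each member (vertical axis, CPM) in FAP-like clusters 3 (Myoc/Gsn/Pi16), 2 (H19/Ptn/Postn) and 13 (low depth, 5 uninjured cells), in dividing cluster 18, and in tenocyte-like cells without and with cartilage genes, by library, with exact Poisson intervals and open symbols where no UMI was counted. Thbs1 was near 70 CPM in cluster 3 of the injured libraries and above 230 CPM in clusters 2 and 13, while Comp peaked in the cells with cartilage genes.

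Between the critical and subcritical libraries, Comp was the member that differed most in FAP-like cells, at a log2 fold of −0.74 (−0.90 to −0.58). The other members lay between −0.23 and 0.03, where Thbs1, Thbs3 and Thbs4 changed sign with the coarser clusters (0.036 to 0.072), and none of the 5 was past the fold, as 1.80% of genes were. In cluster 2 Comp stood at 123.8 CPM in critical and 269.0 CPM in subcritical cells, a log2 fold of −1.11 (−1.37 to −0.85), past the fold where 3.91% of genes were. In cluster 3 the same fold was −0.48 (−0.70 to −0.26), and no member was past the fold, where 11.5% of genes were. In cluster 13, where 33.8% of genes were past the fold, Thbs4 was at −1.02 (−1.19 to −0.85) and Comp at 0.34 (−0.27 to 0.98).

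Hashtags assigned 68 critical and 59 subcritical FAP-like and tenocyte-like cells to animals, between 9 and 28 per animal. Between 1 and 4 of each animal's cells were tenocyte-like. Only 6.28% of critical and 6.46% of subcritical FAP-like cells were tagged, against 90.0% and 93.8% of macrophage-like cells. The lowest hashtag count called was 3 for critical and 2 for subcritical cells. Whether the few tagged fibroblastic cells were given the right animal was not tested. Comp in the tagged cells was at 339.3, 463.5, 88.23 and 332.6 CPM in the 4 critical animals, against 487.5, 409.9, 1246 and 277.1 CPM in the 4 subcritical animals. The groups overlapped, and 1 subcritical animal stood above all the others. Its mean was 305.9 ± 157.1 CPM in critical and 605.1 ± 436.0 CPM in subcritical animals (SD, n = 4 each; exact two-sided permutation p = 0.257).

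Thbs1 was at 339.3, 247.2, 176.5 and 166.3 CPM in the critical animals, against 281.2, 300.6, 976.8 and 492.7 CPM in the subcritical animals. Again the groups overlapped and the same subcritical animal, 3 of whose 10 cells were tenocyte-like, was highest (exact permutation p = 0.114). Thbs4 averaged 3038 ± 845.2 CPM in critical and 3116 ± 1757 CPM in subcritical animals (exact permutation p = 0.943), Thbs2 839.4 ± 416.7 and 556.4 ± 256.6 CPM (exact permutation p = 0.314), and Thbs3 130.0 ± 50.54 and 171.8 ± 72.8 CPM (exact permutation p = 0.371; SD, n = 4 each). The smallest of these 5 exact permutation p values was 0.114, for Thbs1, in a design whose smallest p is 0.0286. The animals of the groups overlapped for every member, so none of the 5 comparisons set the groups apart. A single uninjured animal had at least 5 such cells, so no per-animal comparison with uninjured fibroblasts was made.

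**Figure D4:**
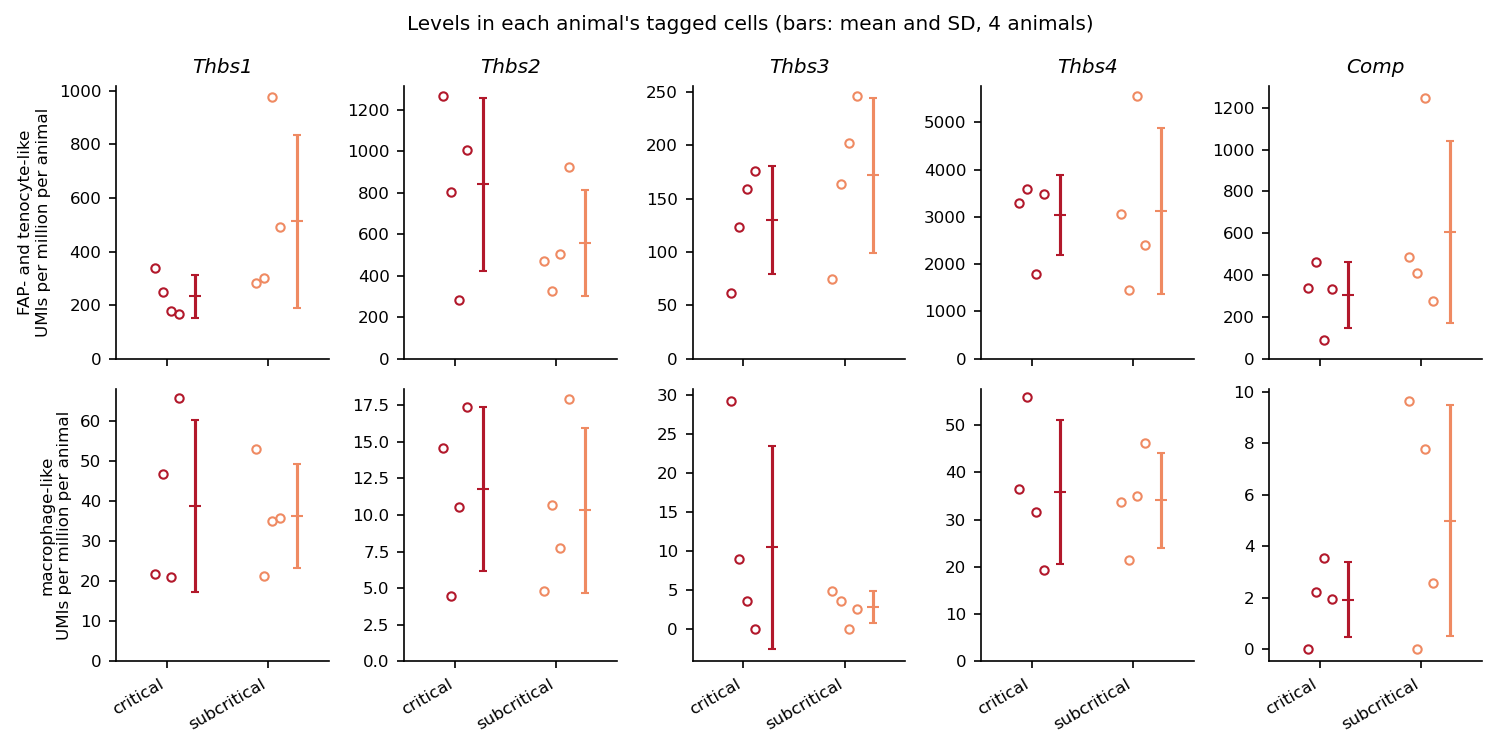
Level of each member (vertical axis, CPM) per animal in hashtag-tagged FAP-like and tenocyte-like cells and in macrophage-like cells, critical left of subcritical, with the mean and SD of 4 animals. The groups overlapped for every member in the fibroblastic cells, where 1 subcritical animal was highest for Thbs1, Thbs4 and Comp.

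Tenocyte-like cells showed another pattern: Thbs2 and Thbs3 were higher after injury, Comp was lower, and Thbs4 was lower in the sum. Thbs2 stood at 1042 CPM in critical, 950.2 CPM in subcritical and 354.5 CPM in uninjured tenocyte-like cells, with log2 folds of 1.55 (1.19 to 1.94) and 1.42 (1.04 to 1.82). Thbs3 stood at 171.1, 136.6 and 62.57 CPM, the last from 12 UMIs, with log2 folds of 1.44 (0.58 to 2.42) and 1.11 (0.18 to 2.15). Thbs1 stood at 454.7, 537.4 and 453.6 CPM, with log2 folds of 0.00 (−0.35 to 0.37) and 0.24 (−0.13 to 0.63).

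Comp had log2 folds of −2.29 (−2.42 to −2.16) for critical and −1.92 (−2.07 to −1.78) for subcritical over uninjured tenocyte-like cells, and Thbs4 −0.73 (−0.80 to −0.66) and −0.62 (−0.69 to −0.54). In this small class 16.6% of genes were past the fold upward and 16.0% downward in the critical contrast, and 16.6% upward and 17.6% downward in the subcritical contrast. The members' counts, 2 upward and 1 downward in each, have to be read against that. Between critical and subcritical cells no member was past the fold, as 17.7% of genes were, and Comp was at −0.36 (−0.52 to −0.21). Macrophage markers summed to 156.0, 379.5 and 10.4 CPM in critical, subcritical and uninjured tenocyte-like cells, with 2, 0 and 8 of 10 at 0, and their part was not tested.

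The uninjured tenocyte-like levels rested on few cells. The 10 highest of the 31 cells held 86.8% of Thbs4 UMIs, with 565 in 1 cell, and 88.2% of Comp UMIs, with 326 in 1 cell. A Thbs4 UMI was present in 98.6% and 95.2% of critical and subcritical cells, against 80.6% of uninjured cells, so the order of the shares was the opposite of that of the summed levels. Without the 10 highest cells of each library, an equal number from unequal groups, the Thbs4 folds turned to 1.05 and 0.996, and those of Comp moved to −0.82 and −0.49. With FAP-like and tenocyte-like cells pooled the Thbs4 folds over uninjured were −0.17 and −0.05.

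A handful of tenocyte-like cells, 3 critical, 7 subcritical and 9 uninjured, fell in a finer cluster led by Col2a1, the main collagen of cartilage. Comp stood at 7641, 9327 and 14600 CPM in these cells and Thbs4 at 684.2, 414.6 and 466.4 CPM. The 9 uninjured cells held 908 of the 1673 Comp UMIs of their library. This split was made after the levels had been seen.

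In the tenocyte-like cells left, 137 critical, 117 subcritical and 22 uninjured, Comp stood at 1303, 1570 and 3094 CPM, with log2 folds of −1.25 (−1.42 to −1.07) and −0.98 (−1.17 to −0.79). Thbs4 stood at 8521, 9348 and 20410 CPM, with log2 folds of −1.26 (−1.33 to −1.19) and −1.13 (−1.20 to −1.05). Thbs2 was at 1.21 and 1.10, and Thbs3 at 1.89 and 1.58 against 6 uninjured UMIs. Past the fold upward were 17.7% of genes in the critical and 17.1% in the subcritical contrast, and downward 16.0% and 21.0%.

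In FAP-like and tenocyte-like cells together, 1064, 883 and 194, the border between the classes plays no part. Thbs2 stood at 713.5, 679.9 and 142.2 CPM (log2 2.32 and 2.25) and Comp at 453.4, 640.0 and 1882 CPM (log2 −2.05 and −1.56) in the critical, subcritical and uninjured libraries. Thbs1 stood at 276.1, 321.0 and 148.2 CPM, with log2 folds of 0.89 and 1.11, and Thbs3 at 199.5, 224.2 and 154.2 CPM. Upward, 7.17% and 6.82% of genes were past the fold, and downward 8.64% and 9.03%. Thbs2 was the member that stood higher after both injuries, past the fold, in FAP-like cells, in cluster 3, in tenocyte-like cells and in both classes together, although with coarser clusters its tenocyte-like folds were 0.79 and 0.65.

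**Figure D5:**
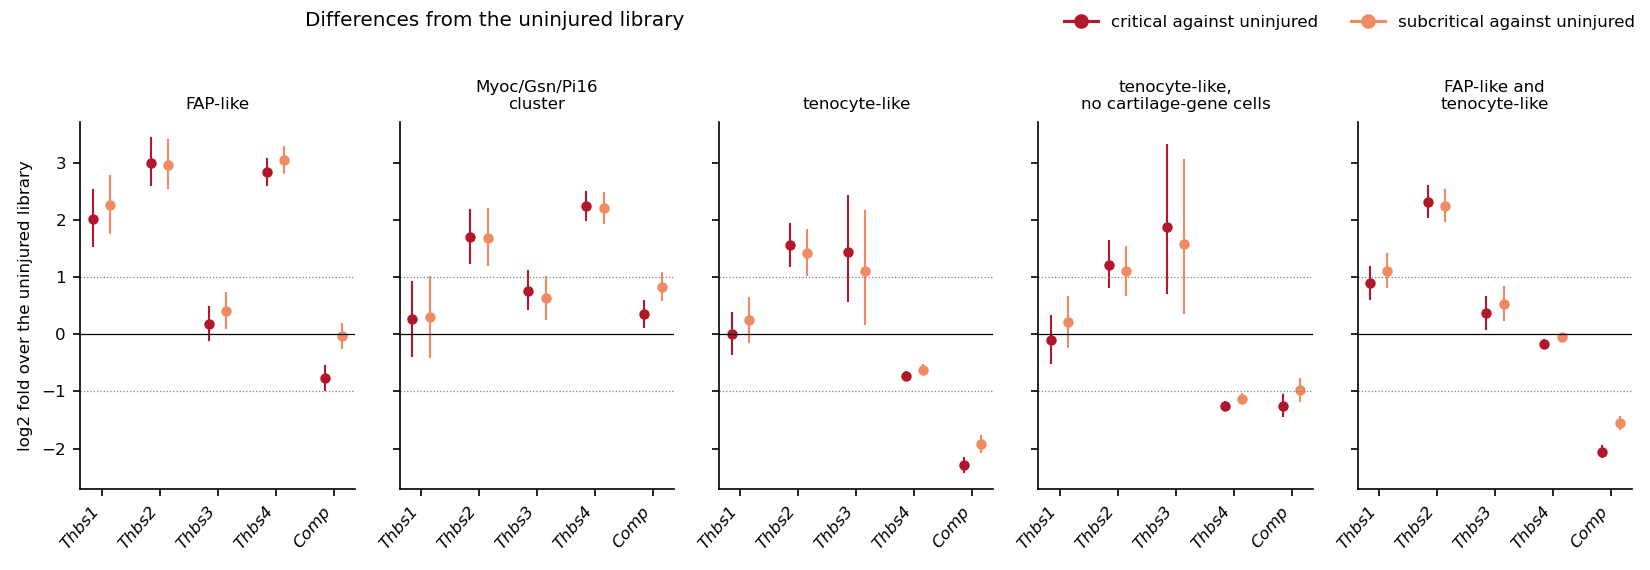
Log2 fold over uninjured (vertical axis, log2 of CPM + 1) of each member in FAP-like cells, FAP-like cluster 3, tenocyte-like cells with and without cells of cartilage genes, and both classes together, for the critical and subcritical libraries, with binomial intervals on the counts and dotted lines at a fold of 1 either way. Thbs2 lay above 1 in all 5 sets of cells, while Thbs4 lay above 1 in the FAP-like sets and below 0 in the tenocyte-like sets and in both classes together.

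Detection of the members within FAP-like cells overlapped. Of FAP-like cells, 11.7%, 13.2% and 39.9% had a UMI of none of the 5 members in the critical, subcritical and uninjured libraries, although uninjured cells were the deepest. Of the Thbs1-positive cells, 74.8% and 72.5% also had a Thbs2 UMI in the critical and subcritical libraries, against 56.8% and 50.7% of all FAP-like cells, and 36.8% of 19 in the uninjured library. Deeper cells show more of any gene, and these shares were not thinned.

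In mural-like cells the members' levels differed by kind of cell. Cluster 10, led by the contractile genes Myh11, Acta2 and Lmod1, had Thbs1 at 465.6 CPM (329.5 to 639.1) in 56 critical cells, 180.8 CPM (93.44 to 315.9) in 52 subcritical cells and 249.7 CPM (215.4 to 287.9) in 189 uninjured cells. The critical level was 1.36 (0.40 to 2.42) above the subcritical one on the log2 scale, in a cluster so small that 52.9% of genes were past the fold. Its share of cells with a Thbs1 UMI was 32.1% in critical and 21.2% in subcritical cells, against 42.3% in the deeper uninjured cells. Cluster 8, led by Rgs5, Higd1b and Kcnj8, had Thbs2 at 141.5, 58.55 and 30.01 CPM in critical, subcritical and uninjured cells, from 44, 8 and 5 UMIs. The critical fold over uninjured was 2.20 (0.90 to 3.801), where 14.2% of genes were past the fold upward.

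Neutrophil-like cells were mostly uninjured (4, 22 and 121 cells in the critical, subcritical and uninjured libraries), and 16.5% of the uninjured ones, at a median of 1825 UMIs, had a Thbs1 UMI. That share in uninjured endothelial-like cells was 2.26%. Comp was also counted at 278.5 CPM in the uninjured neutrophil-like class, but all 87 UMIs were in 2 cells, and all 26 Thbs4 UMIs were in 3 cells.

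Macrophage-like cells could be compared by animal. Thbs1 was at 21.90, 46.93, 21.15 and 65.67 CPM in the 4 critical animals, against 52.98, 21.43, 35.01 and 35.90 CPM in the 4 subcritical animals, from 3 to 34 UMIs each. The groups overlapped, and the log2 difference was 0.28 ± 0.33 (SE; adjusted p = 0.919, edgeR quasi-likelihood test with Benjamini-Hochberg adjustment over 4017 genes). Of those genes 0.921% were called, 17 higher and 20 lower.

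The other members did not reach the count filter there. Thbs4 averaged 35.85 ± 15.18 CPM in critical and 34.08 ± 10.11 CPM in subcritical animals (exact permutation p = 0.886), and the exact p was 0.8 for Thbs2, 0.343 for Thbs3 and 0.286 for Comp. In the macrophage-like cells of uninjured muscle, 31 in all, no UMI of Thbs1 to Thbs4 was seen, which allows up to 38.6 CPM.

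In endothelial-like cells, compared over 3 animals a group, no member reached the filter. This class too was made of different clusters in injured and uninjured muscle. Cluster 0, led by Timp4, Aqp1 and Car4, held 93 critical, 32 subcritical and 757 uninjured cells. Cluster 1, led by Ccl21a, Prnd and Chga, held 358, 371 and 134. Thbs4 was at 23.02, 32.70 and 16.17 CPM in critical, 16.54, 32.04 and 23.86 CPM in subcritical, and 1.65, 8.50 and 0 CPM in uninjured animals. Both injured groups lay wholly above the uninjured one, at the smallest p that 3 animals against 3 allow (exact permutation p = 0.1 each), from at most 2 UMIs per animal. Thbs1 averaged 45.36 ± 50.41, 45.68 ± 30.17 and 8.68 ± 1.12 CPM in critical, subcritical and uninjured animals (SD, n = 3 each; exact permutation p = 0.1 for each contrast with uninjured), also without overlap.

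Col1a1, a fibroblast collagen, moved with these values: it averaged 243.7 ± 31.84, 234.5 ± 127.6 and 23.08 ± 14.42 CPM in the same endothelial-like animals, against 24870, 26140 and 5947 CPM in FAP-like cells of the critical, subcritical and uninjured libraries. The part of fibroblast RNA in the endothelial values was not tested. The edgeR test called 18.2% of 1765 genes in critical against uninjured, 16.0% in subcritical against uninjured and 0.510% between critical and subcritical animals, and none of the members was among those tested. The 282 subcritical calls became 159 without subcritical animal 4 and 186 without subcritical animal 1. In macrophage clusters 4, 5 and 7, endothelial cluster 1 and the unnamed cluster 9, compared in the same way between critical and subcritical animals, no member reached the filter either. The smallest of 25 exact permutation p values for the members there was 0.0571, above 0.05 with no adjustment, for Thbs1 in cluster 4, led by the MHC class II genes H2-Eb1, H2-Aa and H2-Ab1, at 14.55 ± 10.14 CPM in critical and 37.37 ± 18.34 CPM in subcritical animals (SD, n = 4 each).

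Receptors of the family were spread over many classes, the fibroblastic ones among them. Transcripts of 21 receptor genes summed to 2419, 2660 and 2781 CPM in critical, subcritical and uninjured FAP-like cells. The sums were 2465, 2893 and 2998 CPM in tenocyte-like and 2977, 3152 and 3976 CPM in endothelial-like cells. CD36, the receptor of the type 1 repeats, had its transcript at 849.3, 783.9 and 1739 CPM in endothelial-like cells of the critical, subcritical and uninjured libraries, at 251.3, 266.7 and 514.8 CPM in macrophage-like cells and at 11.69, 4.93 and 3.10 CPM in FAP-like cells. Over endothelial-like animals Cd36 averaged 1007 ± 279.2 CPM in critical and 1014 ± 45.49 CPM in subcritical, against 1864 ± 158.0 CPM in uninjured animals (SD, n = 3 each). It fell by 0.85 on the log2 scale in both contrasts (adjusted p = 4.00e-05 and 8.34e-05, edgeR). Itga5, a fibronectin receptor chain, rose by 0.87 in subcritical animals (adjusted p = 0.0493, edgeR), and no other of the 6 receptor genes tested was called. The part of the differing cluster mix in these and the later endothelial-like differences was not tested.

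Cd47, the receptor of the carboxy-terminal domain, stood at 209.6, 210.0 and 389.1 CPM in critical, subcritical and uninjured FAP-like cells. Of 21 receptor genes, 17 were measured at 5 CPM or more in the critical FAP-like contrast with uninjured, of which 4 were past the fold upward and 1 downward (median −0.03, against −0.06 for all genes). Over all genes 8.69% were upward and 9.69% downward in that contrast. In the subcritical contrast 15 were measured, 2 upward and 2 downward, near the 8.34% and 9.84% of all genes. The syndecan Sdc1 stood at 52.02, 52.34 and 9.30 CPM, and Itga9, a receptor chain for tenascin, at 12.44, 19.09 and 65.11 CPM. Antibodies to 4 integrin chains were compared per animal in 16 exact permutation tests (smallest p adjusted over them 0.261). Most of these were endothelial comparisons of 3 animals against 3, whose smallest p of 0.1 allowed no call, and CD49f there was 11.56 ± 1.31% of panel counts in critical and 8.72 ± 0.664% in uninjured animals (exact permutation p = 0.1), without a call being possible. CD61, the beta-3 chain, was 1.085%, 0.955% and 1.014% of panel antibody counts on critical, subcritical and uninjured FAP-like cells.

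Of the 21 genes for matrix partners of Comp and the thrombospondins, 16 were measured in FAP-like cells. Of these, 7 were past the fold upward and 2 downward in the critical contrast with uninjured, and 9 and 2 in the subcritical contrast, with medians of 0.91 and 1.07. Over all genes 8.69% were upward and 9.69% downward in the critical contrast, and 8.34% and 9.84% in the subcritical contrast, and the FAP-like counts of the lists that follow stand against the same shares. Tnc, the tenascin of wound matrix, stood at 868.9, 763.6 and 29.46 CPM, and Col12a1, a fibril-associated collagen that Comp binds, at 938.2, 927.4 and 51.16 CPM. Acan, the cartilage proteoglycan, was at 35.06 and 48.03 CPM with no UMI in uninjured cells, at least 7.54-fold and 10.3-fold higher than 3 counts over that library.

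In tenocyte-like cells the partner list split, with 8 upward and 6 downward of 20 in the critical and 7 and 6 of 20 in the subcritical contrast. Over all genes 16.6% were upward and 16.0% downward in the critical contrast, and 16.6% and 17.6% in the subcritical contrast, also for the tenocyte-like counts of the lists that follow. The cartilage collagens Col9a2, at 6.71, 6.07 and 484.9 CPM, and Col9a3, at 21.81, 21.25 and 954.1 CPM in critical, subcritical and uninjured cells, were among those lower. Cells with cartilage genes were 3 of 140 critical, 7 of 124 subcritical and 9 of 31 uninjured tenocyte-like cells. Their part in these differences was not tested. In endothelial-like animals 4 of 6 tested partners were called higher in critical and 3 in subcritical animals (edgeR), all matrix genes that fibroblasts express: Col1a1, Col1a2, Col3a1 and, in critical animals, Fn1. Of all 1765 genes tested, 169 were called higher in critical and 154 in subcritical animals.

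Proteases that cut the family and their inhibitors moved both ways in FAP-like cells, with 5 upward and 4 downward of 15 measured in each contrast with uninjured muscle. Timp1, a metalloproteinase inhibitor, stood at 610.7 CPM in critical FAP-like cells, against 94.57 CPM in uninjured ones. In tenocyte-like cells 7 of 12 were past the fold upward and 0 downward in the critical contrast, and 8 and 1 of 13 in the subcritical contrast, with medians of 1.17 and 1.21. Mmp14, a membrane collagenase, stood at 1384, 1345 and 109.5 CPM, and Mmp13, an interstitial collagenase, at 221.5 and 692.2 CPM with no UMI in uninjured cells. Between critical and subcritical FAP-like cells, Mmp3 at 36.19 and 15.40 CPM and Mmp9 at 10.93 and 1.85 CPM were higher in critical cells, and Mmp13, at 2.64 and 23.40 CPM, was lower. These were 2 upward and 1 downward of 15 measured, where 1.80% of genes were past the fold in either direction. The levels of 1.85 and 2.64 CPM rest on few UMIs of 1 library each. Timp3 fell in endothelial-like animals, by 0.92 in critical and 1.11 in subcritical (adjusted p = 0.000269 and 8.34e-05, edgeR).

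Of the latent TGF-beta genes, on which Thbs1 acts, 3 of 15 were past the fold upward and 2 downward in critical FAP-like cells, and 4 and 2 of 14 in subcritical ones (medians 0.24 and 0.19). Tgfb3 stood at 146.3, 125.6 and 37.21 CPM in critical, subcritical and uninjured cells, and Ltbp4, a latent TGF-beta binding protein, at 174.9, 253.7 and 968.9 CPM. In tenocyte-like cells 2 of 14 were upward and 3 downward in the critical contrast, near the shares of all genes, and 5 and 2 in the subcritical contrast. Tgfbr2, a TGF-beta receptor, rose in endothelial-like animals by 2.10 in critical and 1.48 in subcritical (adjusted p = 1.87e-05 and 0.0108, edgeR).

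Of 19 other genes with type 1 repeats measured in FAP-like cells, 3 were past the fold upward and 8 downward in the critical contrast, and 3 and 4 in the subcritical contrast, with medians of −0.72 and −0.44. Ccn4, a matricellular target of Wnt signalling, stood at 96.88, 77.59 and 10.85 CPM in critical, subcritical and uninjured cells, and Adamtsl3 stood at 26.39, 27.10 and 99.22 CPM. In tenocyte-like cells the counts were 5 upward and 4 downward of 17, and 4 and 3 of 16.

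The tendon and cartilage list, 8 of whose 22 genes are also the markers that named the tenocyte class, had 12 of 22 members past the fold downward and 1 upward in either injured library's tenocyte-like cells (medians −1.23 and −1.26). Chad, a cartilage leucine-rich protein, stood at 681.2, 901.7 and 8227 CPM there. The part of the cells with cartilage genes, a larger share of the uninjured class, was not tested here either. In FAP-like cells the counts were 6 upward and 5 downward of 18, and 9 and 6 of 21. Scx, the tendon transcription factor, was at 107.1 CPM in critical and 141.6 CPM in subcritical FAP-like cells with no UMI in uninjured ones, at least 23.0-fold and 30.5-fold higher than 3 counts over that library.

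Immediate early and dissociation genes form a class to which Thbs1 itself is known to belong. In FAP-like cells 2 of 18 were past the fold upward and 1 downward in the critical contrast, and 1 each of 17 in the subcritical contrast (medians 0.08 and −0.01), and Klf4 stood at 87.08, 105.9 and 424.8 CPM. In tenocyte-like cells 9 of 17 were downward after critical and 4 of 17 after subcritical injury, with 0 upward. In endothelial-like animals 5 of 13 were called lower in critical animals (Klf4, Jun, Jund, Dusp1 and Hspa1b) and 1, Klf4, in subcritical animals (edgeR). Of all 1765 genes tested, 153 were called lower in critical and 128 in subcritical animals, and the subcritical count of the list is near that share. In mural-like cells, which held 48.1% of uninjured Thbs1 UMIs, the 18 genes summed to 3801, 4045 and 10840 CPM in the critical, subcritical and uninjured libraries, beside Thbs1 at 158.0, 108.4 and 209.0 CPM. The part of dissociation in the mural-like Thbs1 level was not tested.

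Platelets carry thrombospondin 1, and their transcripts were looked for beside Thbs1. Of 12 platelet genes, 5, 3 and 2 had a UMI in critical, subcritical and uninjured FAP-like cells. Pf4 led in the injured libraries and Itga2b in the uninjured one. Pf4 stood at 20.36, 11.7 and 0 CPM. Itga2b stood at 11.69, 11.08 and 15.50 CPM. Gp1ba, Gp1bb, Gp5 and Mpig6b were each counted in at least 1 of the libraries, and Ppbp, Gp9, Gp6, Treml1, Tubb1 and Clec1b were at 0 in all 3. Without Pf4, which macrophages also express, the list summed to 12.8, 12.3 and 17.1 CPM in critical, subcritical and uninjured FAP-like cells. That sum was 5.10, 19.7 and 1.08 CPM in mural-like cells and 13.3, 15.3 and 23.5 CPM in endothelial-like cells. Among the 1282 uninjured endothelial-like cells, 9 of the 12 platelet genes had a UMI, with Ppbp at 4.85 CPM. The part of platelet RNA in the Thbs1 levels was not tested.

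Across 26 class-by-library units of at least 30 cells, the genes most like each member by Pearson correlation of log2(CPM + 1) were mostly matrix genes, given here as a description over units that share libraries and depth. For Thbs1 they were Aebp1, Bgn and Col1a1 (r 0.87 to 0.88), for Thbs2 Srpx2, Col1a1 and Col16a1 (0.91 to 0.93), and for Thbs4 Col1a1, Mmp2 and Abi3bp (0.90 to 0.91). For Thbs3 they were Ccdc80, Adamts2 and Scarf2 (0.94 to 0.96), and for Comp Col8a2, Cpz and Epha3 (0.88 to 0.89). Among the members, Thbs2 and Thbs3 were the most alike at 0.84, and Thbs1 and Comp the least at 0.51.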

How the data were processed

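The values were raw UMI counts as deposited, which per the file headers came from Cell Ranger 6.0.2. The submitters' processing notes also name bcl2fastq and GRCm39 (mm39). Per the labels' protocols the 10x 5' v2 assay was used, with about 10000 cells loaded per group. Cells needed at least 200 genes and 500 UMIs and at most 20% mitochondrial UMIs, and 127, 147 and 76 critical, subcritical and uninjured cells with several hashtags were removed. Scrublet marked 51, 23 and 1 doublets, which were kept. Clusters came from scanpy 1.11.5 (2000 variable genes, 30 components, Leiden 0.8) and took a class from its markers. A cluster whose leading genes went against its markers stayed unnamed.

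Class levels are summed counts as CPM with exact Poisson intervals, and shares have exact binomial ones. Log2 folds use a pseudocount of 1 CPM and call a fold of 1 among genes with a mean of 5 CPM. Counts per animal (at least 20 cells, numbered by hashtag) were tested with edgeR 4.0.16 (TMM, filterByExpr, robust quasi-likelihood fit, Benjamini-Hochberg 0.05), with DESeq2 1.42.0 as an alternative. Fold intervals were tested on simulated data. Members, lists and tests were chosen with earlier results of these data known. Of each list, the text names members that passed a test, or otherwise from the 3 with the largest folds.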

Additional observations from a re-analysis of the deposited data

Results flagged for a closer look

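Thbs4 in tagged FAP-like and tenocyte-like cells was 1782 CPM in critical animal 3, against 3301 to 3585 CPM in the other 3 critical animals, a gap of 0.842 of the group's range. It was the low value of 20 groups of 4 animals looked at, of which chance sets apart about 1 in 20, and it came from 15 cells.

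The Thbs4 difference from uninjured muscle had opposite signs in the 2 fibroblastic classes. For the critical library the log2 fold was 2.83 in FAP-like and −0.73 in tenocyte-like cells, and for the subcritical library 3.05 in FAP-like and −0.62 in tenocyte-like cells. With 1 library per group the difference between the classes was not tested.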

How the results depend on the processing

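Folds over uninjured muscle moved with where the border between FAP-like and tenocyte-like cells lay and with leaving out the 10 highest cells. At Leiden 0.4, 811 of the 861 cells of cluster 2 took the tenocyte name. In FAP-like cells the critical folds of Thbs1, Thbs2, Thbs3, Thbs4 and Comp were then 0.26, 1.78, 0.76, 2.26 and 0.25, which turned Comp round, and the subcritical folds of Thbs1, Thbs2, Thbs4 and Comp were 0.22, 1.75, 2.19 and 0.78. In tenocyte-like cells Thbs1, Thbs2, Thbs4 and Comp were at −0.72, 0.79, −2.52 and −2.998 (critical) and −0.43, 0.65, −2.40 and −2.56 (subcritical). Between critical and subcritical FAP-like cells, Thbs1, Thbs3 and Thbs4 turned to 0.036, 0.072 and 0.069, and Comp was −0.54.

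At Leiden 1.2 the tenocyte-like folds of Thbs4 and Comp were −1.28 and −1.27 (critical) and −1.15 and −1.01 (subcritical). With classes by marker score, Thbs1 and Thbs4 in FAP-like cells were at 1.27 and 2.37 (critical) and 1.39 and 2.54 (subcritical). Thbs4 and Comp in tenocyte-like cells were then at −0.997 and −2.75, and at −0.88 and −2.56, and Comp between critical and subcritical was −0.20. With every cluster given its nearest class they were −0.99 and −2.75, and −0.89 and −2.38. With the members among the variable genes, subcritical Thbs4 in tenocyte-like cells was −0.71.

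With both classes pooled, Thbs1, Thbs2, Thbs3, Thbs4 and Comp were at 0.89, 2.32, 0.37, −0.17 and −2.05 (critical), and Thbs1, Thbs2, Thbs4 and Comp at 1.11, 2.25, −0.051 and −1.56 (subcritical), so that Thbs4 was reversed against FAP-like cells. Between critical and subcritical, Thbs4 was −0.12 and Comp −0.50.

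Without the 10 highest cells of each library, FAP-like Thbs1, Thbs2, Thbs3, Thbs4 and Comp were at 3.44, 4.09, 0.50, 4.57 and 0.59 (critical, Comp reversed), and Thbs1, Thbs2, Thbs4 and Comp at 3.68, 4.04, 4.76 and 1.31 (subcritical). Tenocyte-like Thbs1, Thbs2, Thbs4 and Comp were at 0.77, 2.67, 1.05 and −0.82, and at 0.72, 2.49, 0.996 and −0.49, with Thbs4 reversed. Between critical and subcritical tenocyte-like cells, Thbs1 and Thbs4 turned to 0.048 and 0.054. No value could be had for Thbs3, since its uninjured count falls to 0. An equal number of cells is a larger share of the smaller uninjured groups.

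Alternatives chosen after seeing the data left out cells with cartilage genes (tenocyte-like Thbs4 and Comp −1.26 and −1.25, and −1.13 and −0.98) or the shallow cluster 13 (FAP-like Thbs4 2.82 in subcritical over uninjured, −0.048 in critical over subcritical). The cause of these shifts was not tested.

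Leaving out 1 animal at a time gave 27 to 50 macrophage-like calls, and 159 to 298 endothelial-like calls in subcritical against uninjured, with 159 without subcritical replicate 4 and 186 without subcritical replicate 1. Thbs1 in macrophage-like cells lay between −0.12, turned round without critical replicate 4, and 0.47. No paired analysis was possible because the animal numbers are hashtags and pair no animals across groups. Pseudocounts of 0.1 and 10 CPM, cells of at least 1000 UMIs, leaving out the highest doublet scores and scaling without ribosomal and mitochondrial genes moved no member's fold in FAP-like or tenocyte-like cells beyond its counting interval.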
